A study of Homo sapiens with 9 samples.

Results

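Collagen chain genes were followed in HT1080 cells, an established human fibrosarcoma line, growing on fibrillar collagen with or without protease inhibitors. The chains were all genes of the array annotation whose symbol is COL, a number, A and a number, each read by the brightest of the probe sets (groups of probes for a transcript) that name only that gene. This gave 43 chains, read by 112 probe sets, among 19775 genes read by 41091 probe sets. In 9 chains the mean intensity over the 9 arrays was at least 50, and in 34 it was lower. COL11A2 lay just inside that limit with a mean of 50.6, and COL1A1 just outside with 41.4.

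RNA was measured on 9 one-colour arrays, 3 per group. Cells were seeded on a gel of bovine dermal collagen at 1.7 mg/ml, in medium with 10% serum, and had 24 h to adhere before treatment. Untreated cells, whose sample titles name a vehicle, were compared with cells that received the inhibitors for 4 h or for 24 h. The mix held 100 µM GM6001, which inhibits matrix metalloproteinases, 50 µM pepstatin A (aspartic proteases), 250 µM E64 (cysteine proteases), and 2 µM each of aprotinin and leupeptin (mainly serine proteases, and for leupeptin cysteine proteases too). All 3 groups share the cell line, the collagen gel and the serum. The series design text words the mix as proteinase kinase inhibitors, and the list of compounds is followed here. The sources used here state neither the vehicle nor the harvest time of the untreated cells. The same untreated arrays serve both times, so the comparisons of 4 h and of 24 h with untreated are not independent.

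Collagens are secreted matrix proteins whose chains wind around each other into a long helix. Fibrillar collagens such as type I form the ropes of connective tissue, type IV forms the sheet of basement membranes, type VI forms beaded filaments around cells, and type XIII sits in the cell membrane. Before secretion, prolines and lysines of the chains are hydroxylated and the helix is held by the chaperone HSP47, which SERPINH1 encodes. Outside the cell, lysyl oxidases crosslink fibrils, and metalloproteinases and cathepsins cut collagen.

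The deposited intensities are linear, with a trimmed mean of 100 on every array, so a change in total messenger RNA would not show. A change is given as the difference of log2(intensity + 16) from limma's linear model over all 9 arrays, where the added 16 shrinks the changes of dim genes. A call is an adjusted p below 0.05 after Benjamini-Hochberg correction over all genes. Probe sets differ in brightness for the same amount of RNA, so levels are compared between arrays and not between chains. Each array measures a whole culture, where less RNA per cell and fewer cells expressing a gene cannot be told apart.

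Markers of mesenchymal cells, from which fibrosarcomas derive, were bright. Of 7 measured mesenchymal markers, 6 had a mean of at least 50, and their summed intensity was 21042 to 24414 on untreated, 23545 to 28090 on 4 h and 24955 to 26558 on 24 h arrays. That sum is mostly VIM and LGALS1, while the median change of the 7 at 24 h was -0.31, with 4 below 0. FN1 (-0.51, adjusted p = 0.156, 1 of 7 probe sets opposite) and SPARC (-0.31, adjusted p = 0.193), which encode matrix proteins, were lower at 24 h with no overlap. CDH2 (0.65, adjusted p = 0.109), LGALS1 (0.32, adjusted p = 0.246) and VIM (0.23, adjusted p = 0.435) were higher at 24 h with no overlap. The 5 cartilage markers, of which 1 had a mean of at least 50, summed to 1204 to 1461 untreated, 901 to 1541 at 4 h and 770 to 1068 at 24 h. That sum is mostly SOX9, a transcription factor gene, which changed by -0.56 at 24 h (adjusted p = 0.273). All 6 epithelial and all 5 measured immune markers had means below 16, with sums of 13.8 to 66.7 and 19.4 to 64.5 over all arrays. Endothelial markers summed to 33.8 to 57.5 on untreated, 66.5 to 90.3 on 4 h and 71.4 to 120.1 on 24 h arrays, with 5 of 6 below 16. The other, PECAM1, read 18.2 to 31.3 untreated, 24.4 to 48.9 at 4 h and 46.9 to 55.0 at 24 h. The 6 activated fibroblast markers, of which 1 had a mean of at least 50, summed to 568 to 655, 551 to 718 and 623 to 651 in turn, mostly from ACTA2. The ACTB 5′ to 3′ signal ratio, a measure of RNA or labelling quality, was 0.893 ± 0.034 in untreated, 0.723 ± 0.133 at 4 h and 0.697 ± 0.038 at 24 h (SD, n = 3, exact permutation p = 0.2 and 0.1 against untreated, where 0.1 is the lowest possible). The same ratio for GAPDH was 1.049 ± 0.001, 1.074 ± 0.028 and 1.079 ± 0.018 (exact permutation p = 0.3 and 0.1), in the other direction. The spiked poly-A controls averaged 9.45, 10.32 and 10.74 on the log2 scale (exact permutation p = 0.1 at both times). The part of these array and marker differences in the collagen values was not tested.

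Promoter sequence is shown for COL13A1 and COL6A3, the brighter chains with the largest differences at 24 h, and for the stretch between COL4A1 and COL4A2, whose ratio was compared too. COL4A1 and COL4A2, the partner chains of the common basement membrane collagen, lie head to head with 126 bases between their start sites in RefSeq. COL4A3 with COL4A4 and COL4A5 with COL4A6 are arranged in the same way, with 418 and 379 bases. The stretch between COL4A1 and COL4A2 (GRCh38.p14, chr13:110307158-110307283, plus strand, reading toward COL4A2) has 80.2% G and C. The 250 bases before the start of COL13A1 (chr10:69801656-69801905, plus strand) and of COL6A3 (chr2:237414165-237414414, minus strand) follow. Capitals mark the TATA box (letters TATAAA), the CCAAT box and the GC box (letters GGGCGG), searched on both strands without counting overlap between them.
COL4A1 to COL4A2: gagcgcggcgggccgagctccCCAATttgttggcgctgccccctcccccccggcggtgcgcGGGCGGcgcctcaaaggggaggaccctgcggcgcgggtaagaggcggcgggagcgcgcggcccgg
COL13A1: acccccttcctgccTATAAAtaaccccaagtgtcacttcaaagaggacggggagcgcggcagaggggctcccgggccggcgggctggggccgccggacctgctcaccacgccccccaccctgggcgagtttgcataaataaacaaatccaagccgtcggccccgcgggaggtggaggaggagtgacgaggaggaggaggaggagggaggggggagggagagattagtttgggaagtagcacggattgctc
COL6A3: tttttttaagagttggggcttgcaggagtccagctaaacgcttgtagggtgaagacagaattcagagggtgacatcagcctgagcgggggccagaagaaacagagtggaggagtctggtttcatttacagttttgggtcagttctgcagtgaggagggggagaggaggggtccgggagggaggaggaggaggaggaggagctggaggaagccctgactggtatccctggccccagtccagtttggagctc

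The stretch shared by COL4A1 and COL4A2 holds 1 CCAAT box and 1 GC box, and the COL6A3 window holds none of these motifs. The COL13A1 window holds 1 match to the TATA box letters, near its upstream end and far from the start site. Of 43 chains, 31 had a window in the RefSeq promoter table. The TATA box occurred in 4 of the 31 (12.9%) against 11.1% of 27305 genes, the CCAAT box in 8 (25.8%) against 33.0%, and the GC box in 18 (58.1%) against 42.3%. These are matches of letters and were not tested as sites.

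At 24 h, 1 of 43 chains was called against untreated. It was COL3A1, higher and with a mean intensity of 8.13, below the added 16. Of all genes, 0.217% were called higher and 0.253% lower. At 4 h no chain was called, with 0.238% of all genes called higher and 0.0152% lower, and 7 chains had an unadjusted limma p below 0.05 (4 higher, 3 lower), against 12.3% of all genes (6.91% higher, 5.43% lower). Between 4 h and 24 h no chain was called either (0.0253% of all genes higher, 0.116% lower), and 7 had an unadjusted p below 0.05 (1 higher, 6 lower), against 11.4% (5.2% higher, 6.15% lower). For 24 h against untreated 6 chains had such a p (3 in each direction), against 15.8% (8.15% higher, 7.65% lower). No test compared the 43 chains with other genes.

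The 9 brighter chains lay mostly lower at 24 h. Their median log2 change was -0.10 at 4 h, -0.16 at 24 h and -0.28 from 4 h to 24 h, beside -0.01, 0.01 and 0.01 over the 8837 genes of at least 50. Each array of the 4 h or 24 h group was also set against the mean of its reference group. The medians of these single arrays had an SD of 0.079, 0.037 and 0.067 in turn, which leaves out the spread of the reference arrays. With each gene read by the mean over its probe sets, the median was 0.02 at 4 h and -0.08 at 24 h, and leaving out 1 array at a time gave -0.15 to -0.01 and -0.27 to -0.11. At 24 h, 7 of the 9 lay below untreated and 2 above, and in 4 of them (COL6A3, COL13A1, COL4A2 and COL6A2) every 24 h array read lower than every untreated array, as in 20.6% of genes of at least 50. None was higher with no overlap (21.3%). From 4 h to 24 h, 4 of the 9 (COL13A1, COL4A2, COL4A1 and COL12A1) were lower with no overlap, against 10.5%. At 4 h, COL27A1 and COL12A1 were higher with no overlap (12.9% of such genes) and COL6A3 was lower (12.8%). Of the 9, none was called in any comparison. Among genes of at least 50, 0.43% were called higher and 0.475% lower at 24 h, and 0.0453% and 0.238% from 4 h to 24 h. Of the 9 chains, 3, 3 and 4 had an unadjusted p below 0.05 at 4 h, at 24 h and from 4 h to 24 h, against 17.4%, 24.8% and 14.8%.

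**Figure D1:**
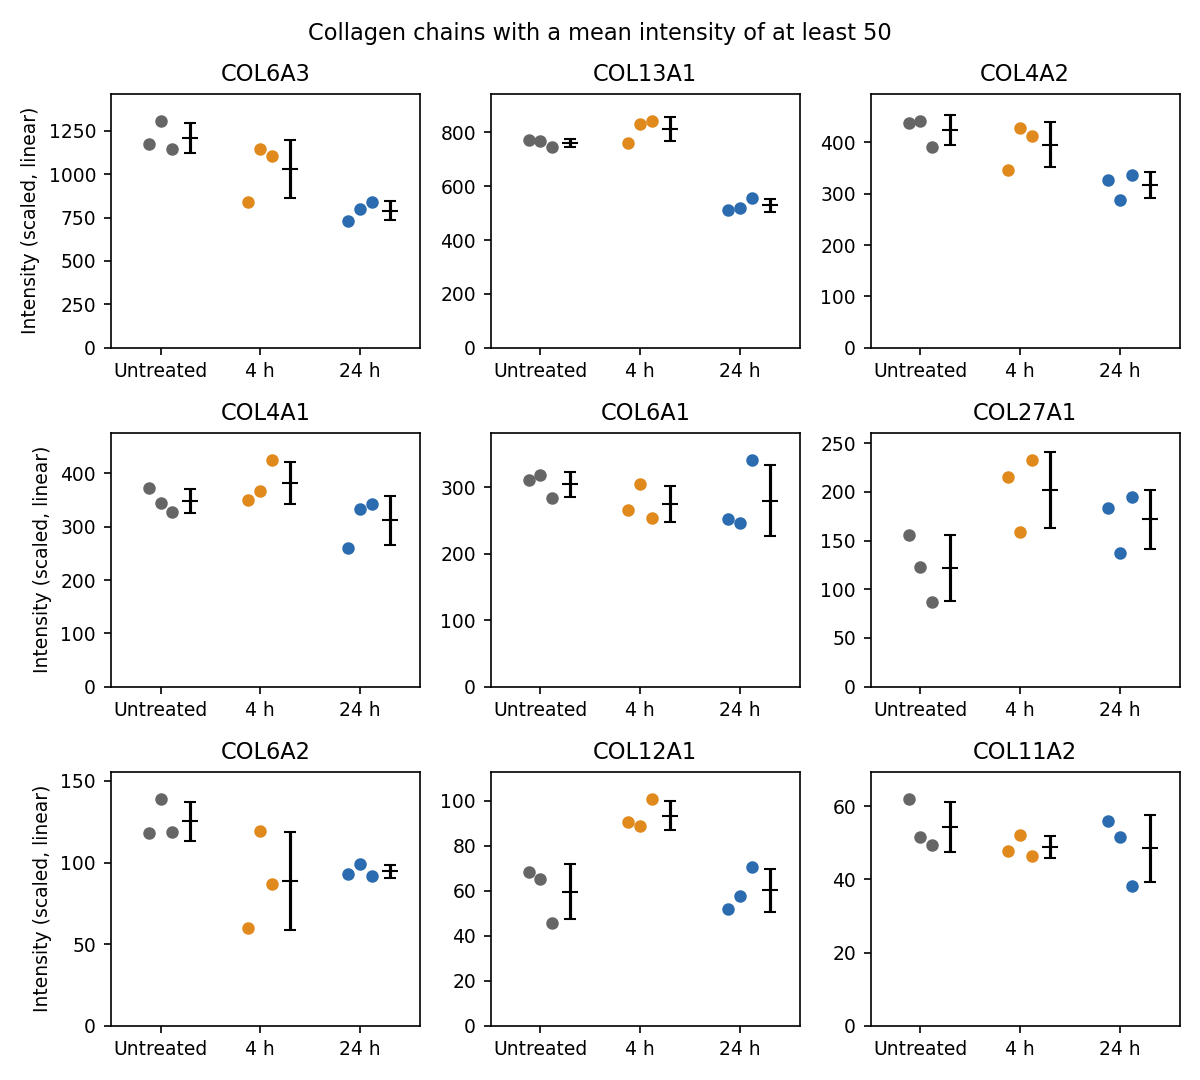
Linear intensity (vertical axis, from 0) of the 9 chains with a mean of at least 50, 1 dot per array in the untreated, 4 h and 24 h groups, with the group mean ± SD (n = 3) as a bar beside the dots. COL6A3 and COL13A1 stand lowest at 24 h with no overlap with untreated, while COL12A1 stands highest at 4 h.

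COL6A3 encodes the long chain of type VI collagen. It read 1177, 1309 and 1148 on the untreated arrays, 840, 1143 and 1108 at 4 h, and 733, 797 and 842 at 24 h. All 6 treated arrays lay below the lowest untreated array, by little for 2 of the 4 h arrays. The log2 change at 24 h was -0.61 ± 0.14 (SE, 95% interval -0.93 to -0.28), or 1.52-fold lower, with an adjusted p of 0.0893. Only 1 probe set reads COL6A3. At 4 h it was -0.24 ± 0.14 (adjusted p = 0.553). The 24 h difference did not pass the threshold as tested, but did with 64 added to intensities in place of 16 (adjusted p = 0.0225) and with dim genes left out (adjusted p = 0.0371). With 1 added the adjusted p was 0.176, and without each array in turn it was 0.0692 to 0.267.

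COL6A1 and COL6A2 encode the 2 shorter chains with which COL6A3 assembles. COL6A2 read 118, 139 and 119 untreated, 59.9, 120 and 87.0 at 4 h, and 92.7, 99.3 and 91.6 at 24 h. Its 24 h arrays all lay below untreated, and at 4 h replicate 2 fell inside the untreated range. The change was -0.47 ± 0.19 at 4 h (adjusted p = 0.364) and -0.35 ± 0.19 at 24 h (adjusted p = 0.418). COL6A1 read 311, 319 and 283 untreated, 266, 305 and 254 at 4 h, and 252, 247 and 341 at 24 h. The groups overlapped at both times, and the third 24 h array was the highest of all 9. The change of COL6A1 was -0.14 (95% interval -0.47 to 0.19) at 4 h and -0.13 (-0.46 to 0.20) at 24 h. Of its 8 probe sets, 4 ran the other way at 4 h and 3 at 24 h. At these times the second brightest (mean 26.7) changed by -0.59 and -0.44, and the third (mean 22.8) by 0.73 and 0.63.

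Whether the type VI chains changed by different amounts was measured as a log2 ratio within each array, and no ratio passed after adjustment. COL6A1 over COL6A3 moved by 0.48 from untreated to 24 h, from -1.94 ± 0.06 to -1.46 ± 0.18 (SD, n = 3), with no overlap (exact permutation p = 0.1, the lowest 3 against 3 arrays allow, and 0.36 adjusted over 9 such comparisons). COL6A1 over COL6A2 moved by 0.22 at 24 h (exact permutation p = 0.2). COL6A5 and COL6A6, alternative type VI chains, had means of 6.34 and 5.89, below the added 16. In the class of 5, these dim chains included, the fitted changes were all at or below 0 at both times, with medians of -0.24 at 4 h and -0.21 at 24 h. With the mean over probe sets COL6A1 turned to 0.02 at 4 h and 0.05 at 24 h.

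COL13A1, a collagen anchored in the cell membrane at sites of adhesion, separated the 24 h arrays most evenly. Untreated arrays read 773, 766 and 744, the 4 h arrays 760, 832 and 843, and the 24 h arrays 513, 518 and 556. The 24 h arrays lay below all 6 others, while untreated and 4 h overlapped. The change was 0.09 ± 0.11 at 4 h (95% interval -0.15 to 0.33, adjusted p = 0.8). At 24 h it was -0.51 ± 0.11 against untreated (-0.75 to -0.28, 1.43-fold lower, adjusted p = 0.0682) and -0.60 ± 0.11 against 4 h (-0.84 to -0.36, 1.52-fold lower, adjusted p = 0.0753). With 64 added to intensities COL13A1 passed in both comparisons (adjusted p = 0.00808 and 0.00431), as it did with dim genes left out (adjusted p = 0.0246 and 0.0275). It did not with 1 added (0.138 and 0.156), with the mean over probe sets (0.249 and 0.36) or without any single array (0.0549 to 0.21 and 0.13 to 0.198). Its 2 other probe sets had 24 h changes of -0.19 ± 0.24 and -0.79 ± 0.30. The other membrane collagens, COL23A1 and COL25A1, had means of 12.0 and 16.2.

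COL4A2 and COL4A1 form the ordinary basement membrane network. COL4A2 read 439, 442 and 391 untreated, 346, 428 and 414 at 4 h, and 326, 287 and 336 at 24 h. The 24 h arrays lay below both other groups, though the first 4 h array was only slightly above them. The change at 24 h was -0.40 ± 0.13 (95% interval -0.69 to -0.12, 1.32-fold lower, adjusted p = 0.163), and the other COL4A2 probe set gave -0.51 ± 0.15. COL4A1 read 372, 345 and 327 untreated, 351, 368 and 426 at 4 h, and 260, 333 and 343 at 24 h. Its treated groups each overlapped with untreated and did not overlap with each other. The change was 0.12 ± 0.14 at 4 h (adjusted p = 0.784), -0.16 ± 0.14 at 24 h (adjusted p = 0.648) and -0.28 ± 0.14 from 4 h to 24 h (adjusted p = 0.49).

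Since COL4A1 and COL4A2 are transcribed from opposite sides of the stretch printed above and their products assemble with each other, their ratio was compared too. The log2 ratio of COL4A1 to COL4A2 was -0.27 ± 0.06 untreated, -0.05 ± 0.14 at 4 h and -0.03 ± 0.26 at 24 h (SD, n = 3). It moved by 0.22 at 4 h (exact permutation p = 0.1) and 0.25 at 24 h (exact permutation p = 0.3), both 0.36 or more when adjusted over the 9 comparisons. The weaker COL4A1 probe set changed by -0.14 at 4 h, opposite to the brighter. Of the other type IV chains, COL4A5 read 24.7 to 45.9 untreated, 41.0 to 44.8 at 4 h and 28.2 to 38.0 at 24 h, so that 4 h and 24 h did not overlap (-0.24 ± 0.16, adjusted p = 0.639). COL4A3, COL4A4 and COL4A6 had means of 3.90 to 10.7.

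COL12A1 and COL27A1 had the largest positive differences at 4 h among the brighter chains, and neither passed the test. COL12A1, which coats the surface of fibrils, read 68.3, 65.1 and 45.6 untreated, 90.8, 88.7 and 101 at 4 h, and 52.0, 57.7 and 70.8 at 24 h. The 4 h arrays stood above all 6 others, and 24 h overlapped with untreated. The change was 0.55 ± 0.15 at 4 h (95% interval 0.20 to 0.89, 1.46-fold higher, adjusted p = 0.207), 0.02 at 24 h (-0.33 to 0.36) and -0.53 from 4 h to 24 h (adjusted p = 0.237). All 5 COL12A1 probe sets had a positive 4 h change. COL27A1, a fibrillar collagen best known from cartilage, read 155, 123 and 87.0 untreated, 215, 159 and 233 at 4 h, and 184, 138 and 195 at 24 h. Its 4 h arrays lay above the untreated ones, the middle array by little, and the 24 h arrays overlapped. The change was 0.68 ± 0.22 at 4 h (0.19 to 1.17, 1.60-fold higher, adjusted p = 0.254) and 0.47 ± 0.22 at 24 h (adjusted p = 0.339). The other COL27A1 probe sets above 16 changed less, by 0.12 and 0.28 at 4 h and by 0.10 and 0.05 at 24 h. Of all 5 probe sets, 1 ran the other way at 4 h and 2 did at 24 h, all below 16.

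**Figure D2:**
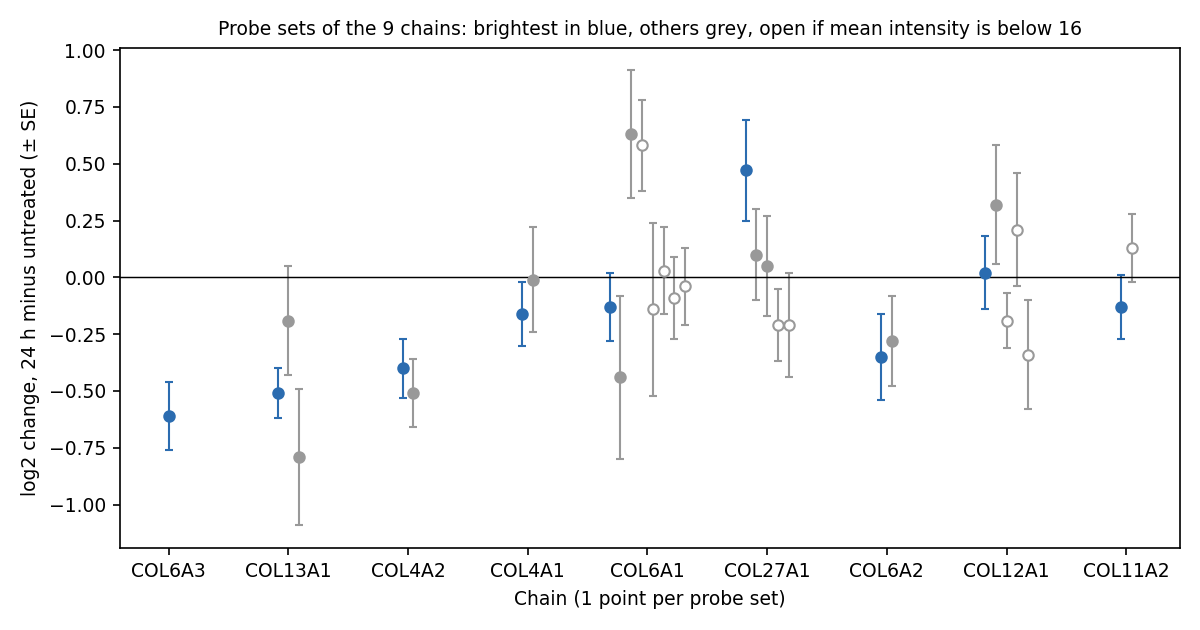
log2 change from untreated to 24 h (vertical axis, ± SE from the limma fit) for every probe set of the 9 brighter chains, the brightest in blue, the others in grey, and open where the mean intensity was below 16. The probe sets of COL13A1, COL4A2, COL6A2 and COL4A1 (1 of them at -0.01) all lie below 0, as does the only one of COL6A3. Those of COL6A1, COL12A1, COL27A1 and COL11A2 lie on both sides.

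COL11A2, a minor fibrillar chain that sits inside cartilage fibrils, read 62.1, 51.5 and 49.4 untreated, 47.7, 52.3 and 46.5 at 4 h, and 55.9, 51.5 and 38.2 at 24 h. All groups overlapped, with changes of -0.11 and -0.13. Its other probe set read 1.77 untreated, 20.0 at 4 h and 3.50 at 24 h, a 4 h change of 1.00 with an adjusted p of 0.0683 over all probe sets, close to background. In a fit of single probe sets, no collagen probe set had an adjusted p below 0.05 in any of the 3 comparisons.

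Chains of the classical connective tissue collagens were dim in these cells. COL1A1, the main chain of type I collagen, read 43.7, 39.9 and 46.7 untreated, 67.6, 39.5 and 44.7 at 4 h, and 17.4, 41.7 and 31.3 at 24 h. The groups overlapped on this probe set, and the change at 24 h was -0.40 ± 0.22 (adjusted p = 0.413). On its second brightest probe set (mean 23.9) the 24 h arrays read 19.5, 10.6 and 5.9, below all other arrays. The change there was -0.66 ± 0.18 against untreated (adjusted p = 0.147 over all probe sets). Of the 5 probe sets of COL1A1, 1 ran the other way at 24 h. Its partner COL1A2 had a mean of 15.9 and COL5A1, which helps start fibrils, 27.3. In all, 24 of the 43 chains had means below 16, as did 39.6% of all genes, and 10 lay from 16 to 50. The 34 chains below 50 had means of 1.80 to 41.4, and their median change was 0.07 at 4 h and 0.00 at 24 h.

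COL3A1, the chain of type III collagen that accompanies type I in soft tissue, was the called chain. It read 2.1, 2.7 and 1.6 untreated, 1.8, 3.1 and 2.4 at 4 h, and 17.1, 29.9 and 12.5 at 24 h. The 24 h arrays stood above all 6 others, on a probe set whose mean over all arrays was 8.13. The change was 0.95 ± 0.17 (1.94-fold, adjusted p = 0.0487). Its size follows the constant added, with 2.66 for 1 (adjusted p = 0.0742) and 0.34 for 64 (adjusted p = 0.0423). Its 4 other probe sets read below 10 in every group mean, with changes of -0.11 to 0.25, and with the mean over all 5 probe sets the change was 0.29 (adjusted p = 0.376). The call was kept without the second 4 h array (adjusted p = 0.0452) and lost without each of the other 8. The adjusted p was then 0.13, 0.184 and 0.174 without the untreated arrays in turn, 0.0688 and 0.0632 without the first and the third 4 h array, and 0.109, 0.116 and 0.0921 without the 24 h arrays.

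Of the other dim chains, 3 had separate groups with a group mean above 16, beside COL4A5 above. COL16A1, which links fibrils to their surroundings, read 21.2, 2.4 and 20.1 untreated, 33.7, 40.8 and 36.2 at 4 h, and 4.4, 23.5 and 32.3 at 24 h. The 4 h arrays stood above all 6 others, by 0.86 ± 0.34 against untreated (adjusted p = 0.352). COL18A1, the basement membrane collagen from which endostatin is cut, read 15.3, 23.7 and 29.9 untreated, 29.7, 33.9 and 41.8 at 4 h, and 33.0, 43.8 and 34.7 at 24 h. Its 24 h arrays lay above untreated, by 0.46 ± 0.17 (adjusted p = 0.223). COL7A1, the anchoring fibril chain, spread from 15.4 to 57.9 untreated, lay at 16.7 to 18.7 at 4 h and at 27.3 to 37.3 at 24 h. Only the treated groups were separate from each other, by 0.48 ± 0.27 (adjusted p = 0.561). Among all 43 chains, non-overlapping groups were found for 3 higher and 1 lower at 4 h (9.36% and 8.15% of all genes), 2 and 4 at 24 h (12.8% and 12.2%), and 2 and 6 from 4 h to 24 h (7.35% and 7.86%).

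**Figure D3:**
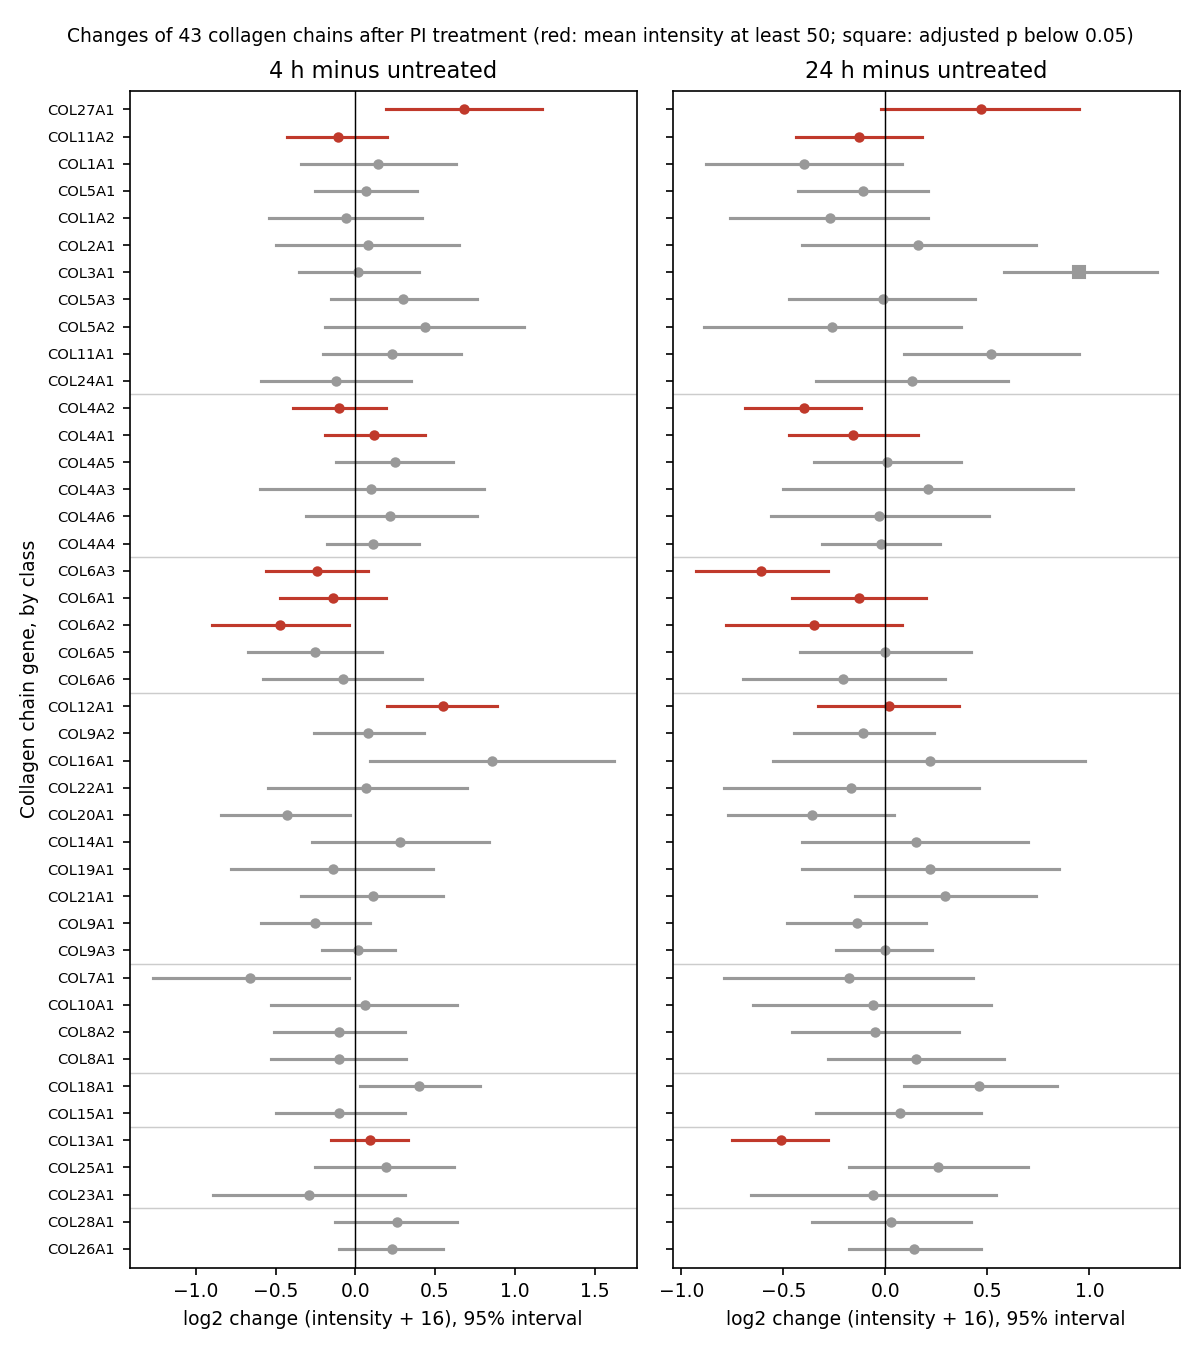
log2 change with its 95% interval (horizontal axis) for all 43 chains, at 4 h on the left and 24 h on the right, grouped by class with lines between classes, each side with its own scale. Red marks the 9 chains of at least 50 and the square marks COL3A1, called at 24 h. The 5 beaded filament chains, in the third class from the top, lie at or below 0 on both sides.

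The genes that make a chain into a helix were described from a list of 19, of which 18 were measured and 15 had a mean of at least 50. None passed in any comparison, where at most 0.253% of all genes were called in either direction. Their median change was -0.20 at 4 h and at 24 h, with 15 and 13 of 18 below 0, beside 0.01 over all genes. SERPINH1, the collagen chaperone HSP47, read 362, 380 and 389 untreated, 270, 391 and 200 at 4 h, and 110, 190 and 145 at 24 h. All 24 h arrays lay below all 6 others, and the change was -1.29 ± 0.24 (2.44-fold lower, adjusted p = 0.0541, 1 probe set). P4HA2, a catalytic subunit of prolyl 4-hydroxylase, went the other way. It read 264, 297 and 327 untreated, 478, 377 and 455 at 4 h, and 474, 514 and 520 at 24 h, with both treated groups above untreated. The change was 0.53 ± 0.13 at 4 h (adjusted p = 0.157) and 0.74 ± 0.13 at 24 h (adjusted p = 0.0502), with 1 of 3 probe sets moving the other way.

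The call of both genes depended on the setting. SERPINH1 passed with 64 added (adjusted p = 0.0161), with dim genes left out (0.0198), with the 2 compared groups alone (0.0465), and without the second or the third 4 h array (0.031 and 0.048). It did not with 1 added (0.132), after quantile normalization (0.0542) or median centring (0.0531), or without any other array (0.0755 to 0.184). P4HA2 passed with 64 added (0.00878), with dim genes left out (0.0181), after quantile normalization (0.0472), with the 2 compared groups alone (0.0487) and without the second 4 h array (0.0362), while the mean over its probe sets gave 0.28 (adjusted p = 0.347). It was 0.118 with 1 added, 0.0783 after median centring, and 0.0627 to 0.184 without any other array. P4HB, the partner subunit of prolyl hydroxylase and a disulfide isomerase, was 2094 ± 110 untreated, 1442 ± 339 at 4 h and 1392 ± 112 at 24 h (SD, n = 3), with no overlap with untreated at either time (-0.58 ± 0.18 at 24 h, adjusted p = 0.148). FKBP10, a prolyl isomerase for procollagen, read 125 to 152 untreated, 69.8 to 97.4 at 4 h and 76.5 to 107 at 24 h, also without overlap (-0.61 ± 0.15 at 4 h, adjusted p = 0.159).

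For transport of procollagen out of the endoplasmic reticulum, all 11 listed genes were measured. None was called, beside at most 0.253% of all genes in either direction. The median change was -0.04 at 4 h and 0.05 at 24 h. SAR1A, a small GTPase of the COPII coat, was 488 ± 38.7 untreated, 638 ± 124 at 4 h and 686 ± 32.2 at 24 h (0.48 ± 0.15 at 24 h, adjusted p = 0.152, 1 of 3 probe sets opposite). Its paralog SAR1B changed by 0.39 ± 0.14 at 24 h (adjusted p = 0.209), against the sign of 2 of its 5 probe sets. MIA3, the receptor that loads procollagen into the coat, changed by 0.30 ± 0.16 at 24 h (adjusted p = 0.401), and SEC23A, a coat subunit, by -0.40 ± 0.16 at 4 h (adjusted p = 0.367).

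Of 13 genes for processing and crosslinking, LOX alone was called, and only at 24 h, where 0.253% of all genes were called lower. LOX, which oxidizes lysines to crosslink fibrils, read 373, 413 and 391.6 untreated, 326, 404 and 288 at 4 h, and 210, 238 and 191 at 24 h. All 24 h arrays were below all 6 others, and the change was -0.84 ± 0.15 (1.79-fold lower, adjusted p = 0.0485), with the same sign in its 3 probe sets. The list had a median of -0.20 at 24 h, with 11 of 13 below 0, beside a median of 0.01 over all genes. Of the 13, 5 had means of at least 50 and 5 had means below 16. The LOX call was kept without the second or the third 4 h array (adjusted p = 0.03 and 0.0458) and lost without any other. Those adjusted p-values were 0.121, 0.184 and 0.174 without the untreated arrays in turn, 0.0685 without the first 4 h array, and 0.115, 0.121 and 0.139 without the 24 h arrays.

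Of the enzymes that cut propeptides, BMP1 was 104 ± 2.38 untreated, 99.9 ± 31.0 at 4 h and 91.9 ± 13.4 at 24 h, with overlap, and the ADAMTS members were dim. ADAMTS14 was 9.33 ± 4.28 untreated, 26.0 ± 1.42 at 4 h and 4.63 ± 3.52 at 24 h, a change of -1.04 ± 0.16 from 4 h to 24 h (adjusted p = 0.0528). ADAMTS2, which cuts the amino-terminal propeptide, was 22.4 ± 9.31 untreated and 7.37 ± 3.81 at 24 h (-0.70 ± 0.21, adjusted p = 0.139). Among further lysyl oxidases, LOXL3 changed by -0.38 ± 0.14 at 24 h (adjusted p = 0.228) and LOXL4 by 0.34 ± 0.19 at 4 h (adjusted p = 0.505, 1 of 2 probe sets opposite).

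Of 10 listed collagen receptors 9 were measured, with a median change of -0.06 at 24 h. None was called, beside at most 0.253% of all genes in either direction. DDR2, a receptor kinase activated by fibrillar collagen, was 184 ± 33.9 untreated, 266 ± 63.6 at 4 h and 260 ± 46.0 at 24 h, with overlap (adjusted p = 0.362, then 0.296). At 24 h, 3 of the 4 DDR2 probe sets ran against the brightest. The integrin chain ITGA2 was 1232 ± 218 untreated, 1805 ± 541 at 4 h and 1797 ± 384 at 24 h, with an adjusted p of 0.424, then 0.325. Of the 2 ITGA2 probe sets, 1 moved the other way at 24 h. ITGA11 changed by -0.71 ± 0.28 (adjusted p = 0.252, 2 of 3 probe sets opposite) and ITGA10 by -0.41 ± 0.16 (adjusted p = 0.265) at 24 h.

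Of 17 transcription factors and regulators with known roles at collagen genes, 16 were measured. None was called, beside at most 0.253% of all genes in either direction. Their median change was -0.08 at 4 h and -0.15 at 24 h. NFYB, a subunit of the factor that binds CCAAT, read 94.8, 89.4 and 72.3 untreated, 77.4, 95.1 and 97.6 at 4 h, and 57.3, 38.7 and 45.4 at 24 h. The 24 h arrays lay below all 6 others (-0.69 ± 0.15, adjusted p = 0.0803), and all 4 probe sets had that sign. SMAD7, an inhibitor of TGF-beta signals, changed by -0.43 ± 0.15 at 24 h (adjusted p = 0.187). SP1, which binds GC-rich promoter sequence, changed by 0.42 ± 0.12 at 4 h (adjusted p = 0.218) and 0.33 ± 0.12 at 24 h (adjusted p = 0.237), and 3 of 4 probe sets moved the other way both times. At 4 h YBX1 and SMAD2 both changed by -0.28 ± 0.12 (adjusted p = 0.37), with 1 of 3 YBX1 probe sets opposite.

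**Figure D4:**
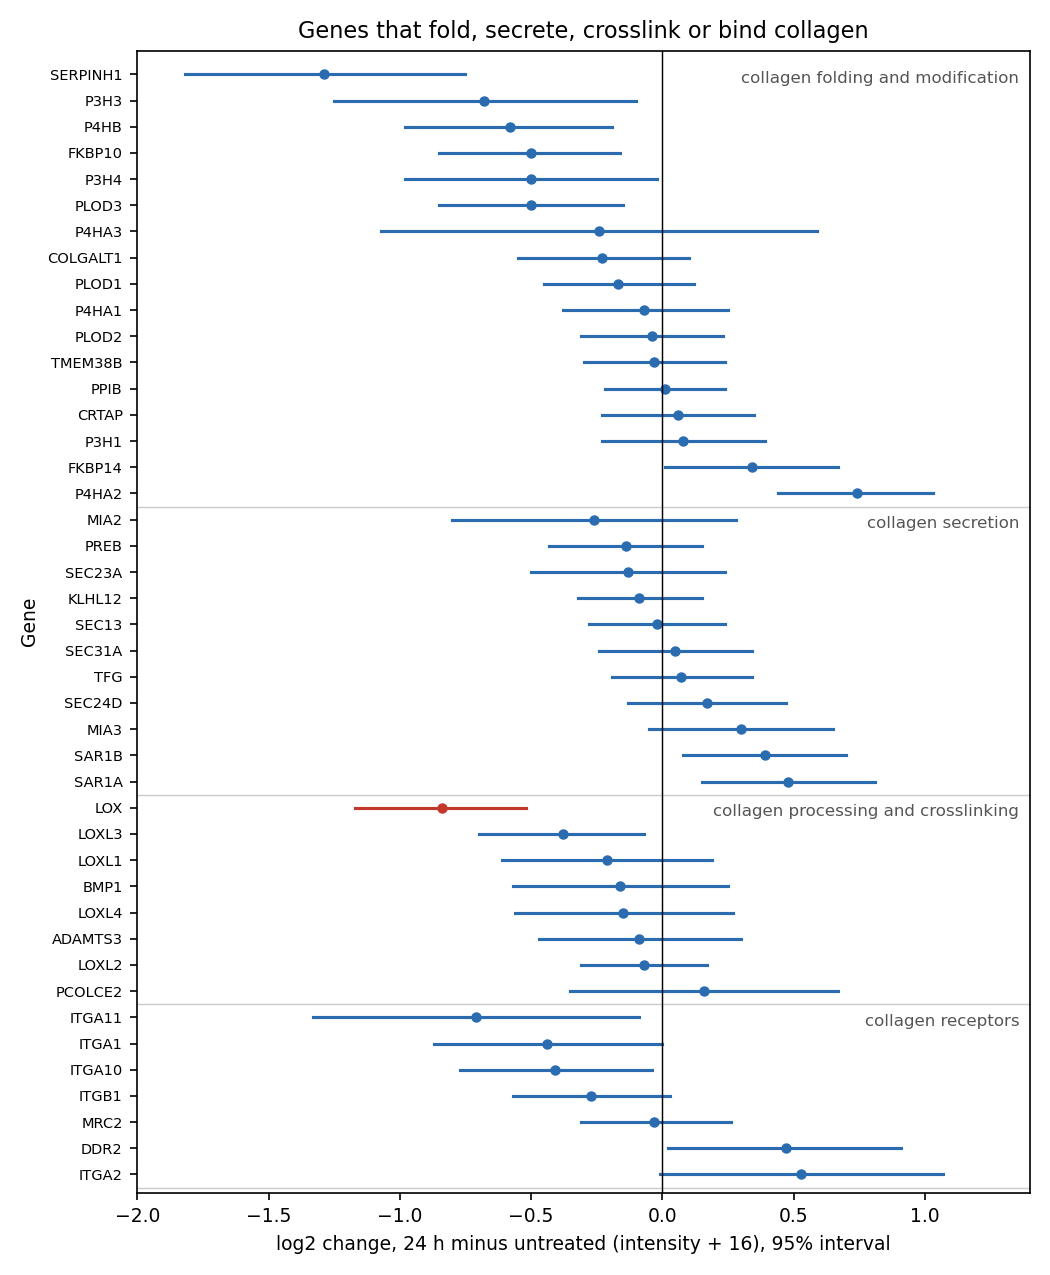
log2 change from untreated to 24 h with its 95% interval (horizontal axis) for the 43 genes of 4 collagen lists whose mean intensity was at least 16, in order of change within folding and modification, secretion, processing and crosslinking, and receptors. LOX, in red, is the called gene. SERPINH1 and P4HA2 lie at opposite ends of the folding list.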

How the data were processed

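Per the labels' protocols, biotin-labelled cRNA was made from 6 µg of total RNA and hybridised to Affymetrix arrays. The authors deposited 1 linear intensity for each of 54675 probe sets and array. R 2.9.2 and RMA appear in the submitters' processing notes with no role given, yet the values are not logarithmic. Trimmed by 2% at both ends, each array had a mean of 100. Detection calls were not used here. Left out were 62 controls, 1801 probe sets with several genes and 11721 absent from the annotation table, which leaves 41091. Entrez identifiers matched the RefSeq table for 41037 and not for 54. No coordinates are taken from the array, which names no build.

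limma 3.58.1 (lmFit, eBayes) in R 4.3.3 was fitted to log2(intensity + 16) over all 9 arrays, 1 mean per group, with no filter and with two-sided tests. Array measures and chain ratios were compared by exact permutation in Python 3.11.15. Replicates are biological according to the design text. Their numbers were not taken to pair samples, because deviations of same-numbered arrays correlated at -0.213 to 0.15. The fit was tested on simulated data for 24 h against untreated over 19775 genes. Changes were planted only in genes above the 40th percentile of mean log2 value. Of 81 changes of 0.5, 55 of 1 and 64 of 2 (log2), 6.2%, 76.4% and 98.4% were recovered, with 8 false calls. Recovery in dimmer genes, COL3A1 among them, was not tested. The members, lists and tests were chosen with earlier results of these data known. Chains of at least 50 were all named, and dimmer ones where called, next to 50, or with separate groups and a group mean above 16. From each pathway list, called genes and the 3 smallest p-values against untreated were named. BMP1, the markers FN1, SPARC, CDH2, LGALS1, VIM, SOX9 and ACTA2, and partner chains outside the rule were chosen after their values were seen. These partner chains were COL1A2, COL5A1, COL23A1, COL25A1, and the other type IV and VI chains. Alternatives were the pseudocount, a filter, probe set choice, scaling, the groups fitted, a replicate block and leaving out each array. Choosing probe sets by mean log2 value, and all alternatives for LOX, P4HA2 and SERPINH1, were added after seeing the data. The number of arrays limits the precision.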

Additional observations from a re-analysis of the deposited data

Results flagged for a closer look

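COL4A1 was flagged because its 2 times lay on opposite sides of untreated: all 3 arrays at 4 h lay above the untreated mean and all 3 at 24 h below it. Opposite signs at 4 h and 24 h were not particular to it, with COL13A1 (0.09 and -0.51) and COL1A1 (0.14 and -0.40) among others. For COL4A1 the 24 h minus 4 h difference was -0.28 on the log2 scale, smaller than the -0.60 of COL13A1. In limma's test of that COL4A1 difference the adjusted p was 0.49, and neither time was called against untreated. The other COL4A1 probe set did not show it, with changes of -0.14 at 4 h, -0.01 at 24 h and 0.13 from 4 h to 24 h, and the mean over probe sets gave -0.01 at 4 h.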

How the results depend on the processing

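For 24 h against untreated, where COL3A1 was called, the count of chains went from 1 to 0 with a pseudocount of 1 (COL3A1 adjusted p = 0.0742), with probe sets averaged (0.376), with the compared groups alone (0.0643) and with the replicate block (0.0948). It was 3 with a pseudocount of 64 (COL13A1, COL3A1, COL6A3), 2 with a filter at the 40th percentile, which tests 20 chains (COL13A1, COL6A3), and 0 to 1 when each array was left out. From 4 h to 24 h the count of 0 became 1 (COL13A1) with a pseudocount of 64 and with the filter, and stayed 0 without each array. LOX lost its call with a pseudocount of 1 (adjusted p = 0.115), the mean over probe sets (0.0531) and the replicate block (0.0855). The block changed no other call among the chains. The median of the 9 chains was 0.02 at 4 h and -0.08 at 24 h with the mean over probe sets, and without each array it ranged from -0.15 to -0.01, from -0.27 to -0.11 and from -0.35 to -0.20 from 4 h to 24 h.

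Some uncalled changes turned sign, and the cause was not tested. With the mean over probe sets, the 4 h change was 0.44 for COL11A2, 0.02 for COL6A1 and -0.01 for COL4A1, COL1A1 and COL4A5, the 24 h change was 0.00 for COL11A2, 0.05 for COL6A1 and -0.27 for COL4A5, and the 24 h minus 4 h change of COL18A1 was -0.06. COL11A2 from 4 h to 24 h was 0.03 after quantile normalization and 0.02 after median centring, which also gave COL3A1 -0.01 at 4 h. COL6A1 over COL6A2 from 4 h to 24 h was 0.02 with the mean over probe sets. Leaving out arrays gave, at 24 h against untreated, -0.13 to 0.10 for COL12A1, -0.11 to 0.58 for COL16A1, -0.13 to 0.17 for COL4A5 and -0.55 to 0.06 for COL7A1, and at 4 h -0.03 to 0.26 for COL1A1 and 0.00 to 0.05 for COL3A1. From 4 h to 24 h it gave -0.13 to 0.09 for COL6A1, -0.10 to 0.32 for COL6A2, -0.03 to 0.15 for COL18A1 and -0.10 to 0.10 for COL11A2. The ratios ranged from -0.09 to 0.16 (COL4A1 over COL4A2) and -0.27 to 0.09 (COL6A1 over COL6A2) from 4 h to 24 h, and from -0.02 to 0.21 for COL6A1 over COL6A3 at 4 h. Whether chains with means below 16 lie above background was not tested, since no background level was estimated and detection calls were not used. The 3 arrays per group limit what could be called.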
